A study of Mus musculus with 2 samples.

Results

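Natural killer (NK) cells are lymphocytes that kill stressed or infected cells without an antigen receptor of their own making. They carry germline-encoded receptors, release perforin and granzymes from lytic granules, and secrete chemokines such as Xcl1, which attracts cross-presenting dendritic cells. Together with the innate lymphoid cells (ILCs) they are told from T cells by the lack of the Cd3 chains, and they are a minor population of the choroid, the vascular layer that lies under the retinal pigment epithelium (RPE).

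Cells of the RPE layer were profiled by 5′ single-cell RNA sequencing in C57BL/6J mice aged 3 months. The control group had received PBS and the Dox group doxorubicin at 100 ng/µl, a DNA-damaging drug, by subretinal injection. Each condition was 1 library, pooled from the eyes of several mice. Neither condition therefore had a replicate, no test between conditions was possible, and the intervals below are 95% intervals for counting error only. Differences between animals, injections or library preparations cannot be told apart from the effect of Dox.

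The cells described here were chosen by the UMIs of single genes, so the levels of those genes are a description and not a finding. A UMI is a molecular tag that counts an RNA molecule once. A cell that passed the quality limits was included when the UMIs of Nkg7, Gzma, Klrd1, Xcl1 and Ccl5 summed to 10 or more with at least 3 of these 5 genes detected, and when Cd3d, Cd3e and Cd3g together had fewer than 2 UMIs. Limits on Rpe65 (under 10 UMIs), Dcn (under 2000 CPM) and 4 MHC class II genes (under 10000 CPM) were set against RPE cells, fibroblasts and antigen-presenting cells, although 1 control cell rich in macrophage genes passed them. The rule found 144 of 35627 kept cells, 75 of 20189 in the control library and 69 of 15438 in the Dox library. CPM stands for counts per 1000000 UMIs, of a cell in these limits and summed over a cell group in all levels below. The cells held 301974 UMIs in the control library and 319472 in the Dox library, with a median of 3301 and 3614 UMIs per cell, and 3 counts, taken as the floor for a gene at 0, equalled 9.93 and 9.39 CPM.

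The Cd3-negative cytotoxic cells made up 0.371% of kept control cells (0.292 to 0.465, exact Clopper-Pearson interval) and 0.447% of kept Dox cells (0.348 to 0.565). With 1 library per condition these shares were not compared by a test. Cd3-positive cells, with 2 or more Cd3 UMIs under the same limits, made up 1.37% (276 cells) and 0.952% (147 cells). Among the cells that passed the cytotoxic minimum and the Rpe65, Dcn and MHC class II limits, the Cd3-negative ones were 44.9% (37.2 to 52.8, 75 of 167) in the control library and 61.1% (51.4 to 70.1, 69 of 113) in the Dox library. Shares depend on how completely each cell type was freed from the tissue, which was not measured.

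Few cells lay close to the limits. In the control library 2 included cells had a cytotoxic sum of 10 or 11, and 1 excluded cell that met every other limit had a sum of 8 or 9. In the Dox library the corresponding numbers were 0 and 1. Of the included cells 5 control and 2 Dox cells had 1 Cd3 UMI, while 6 control and 2 Dox cells with 2 Cd3 UMIs fell just outside. The libraries shared 441 cell barcodes, of which 0 control and 1 Dox cell were among the cells described.

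**Figure D1:**
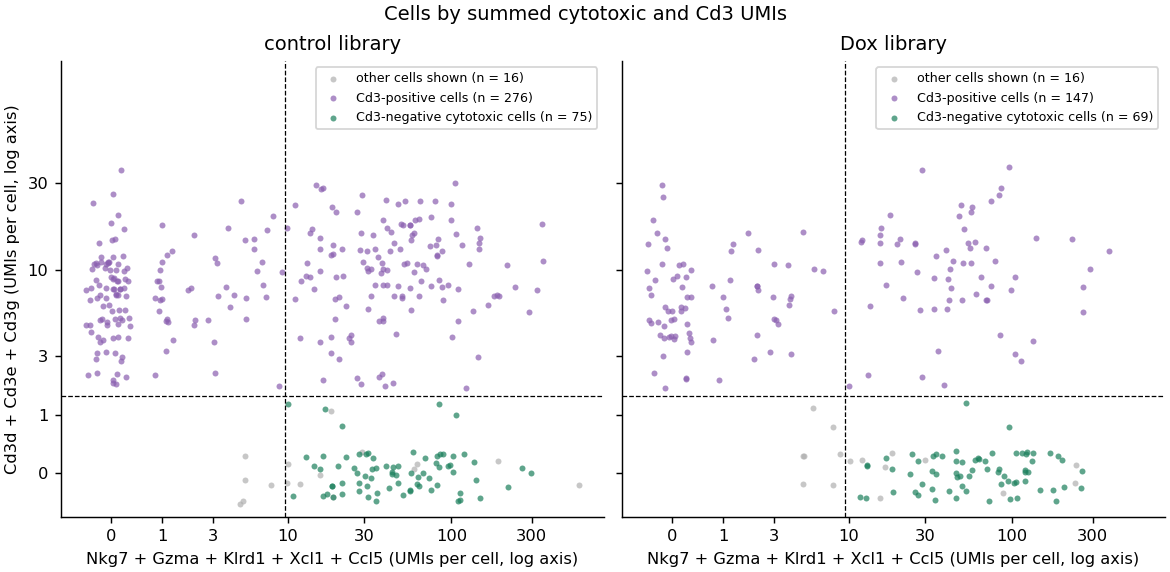
Each point is a cell within the quality, Rpe65, Dcn and MHC class II limits that had a cytotoxic sum of 5 or more or 2 or more Cd3 UMIs. The x axis is the summed UMIs of the 5 cytotoxic genes and the y axis the summed Cd3 UMIs, both on a log axis with slight jitter. The dashed lines mark the limits of 10 and 2 UMIs, grey cells right of the line had fewer than 3 of the 5 genes, and the 75 control and 69 Dox Cd3-negative cytotoxic cells (green) sit in the lower right, below the 276 and 147 Cd3-positive cells (purple).

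The label of the cells was checked on genes that the rule did not use. Ncr1, which encodes the activating receptor NKp46, or Klrb1c, which encodes NK1.1, was detected in 67 of 75 control and 62 of 69 Dox cells. Either gene was detected in 17 of 276 and 8 of 147 Cd3-positive cells. With each cell thinned to 1000 UMIs (2 shallower Cd3-positive cells left out per library), Ncr1 was detected in 34.7% and 36.2% of Cd3-negative and 1.46% and 0.69% of Cd3-positive cells. Fibroblasts, which should lack both, had either gene in 11 of 11738 and 9 of 8649 cells at a greater median depth of 4881 and 5437 UMIs. All 17 genes of the NK cell marker list were detected in each library, at a summed level of 9392 and 10655 CPM against 1030 and 1121 CPM in Cd3-positive cells. The adaptor genes Tyrobp (2616 CPM) and Fcer1g (2927 CPM) were its most abundant genes in the control and Dox library, respectively.

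Defining markers of other lymphocytes were at 0, while other genes of their lists were detected. Cd8a, Cd8b1, Cd4 and Cd5 had no UMI in either library, the Cd3 genes were kept low by the rule, and the T cell receptor gene Trac had 1 and 3 UMIs. The T cell list without the Cd3 genes summed to 477 and 448 CPM (144 and 143 UMIs, in 54 of 75 and 53 of 69 cells), led by Thy1 (195 and 172 CPM), against 2944 and 2767 CPM in Cd3-positive cells, which were themselves drawn by Cd3. At least 1 UMI of a T cell receptor or coreceptor gene was found in 10 control and 16 Dox cells, and 2 or more in 2 and 3 cells. The gamma delta T cell list had 25 and 27 UMIs in 25.3% and 20.3% of cells, led by Trdv4 (13 and 12 UMIs). Of the ILC2 markers, Il1rl1, Il5, Il13 and Il17rb had no UMI, and Rora led the list with 18 and 37. Of the ILC3 markers, Il22, Il17a and Il23r had no UMI. The B cell genes Cd79a, Cd79b and Ms4a1 and all 5 neutrophil markers were likewise at 0, and Ighm led the B cell list with 23 and 26 UMIs. The part of these genes in the results was not tested. By Ncr1, Klrb1c and the adaptors most of the cells were NK-cell-like, although Ncr1 also belongs to the ILC3 list. Of the markers of other innate lymphocytes, Cxcr6 was found in few cells, as given below. Neither Ncr1 nor Klrb1c was detected in 8 control and 7 Dox cells, and 1 of these Dox cells also lacked Tyrobp and Fcer1g and held 8 UMIs of the T cell list without the Cd3 genes.

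The marker genes given for the population were not shared by all of its cells. Nkg7, a granule membrane protein, was detected in 74 of 75 control and 67 of 69 Dox cells, whereas Klrd1, which encodes CD94, was detected in 55 and 49 cells. Gzmc, which encodes granzyme C, was detected in only 2 control cells and 6 Dox cells. The Gzmc UMIs were 1 and 1 in the control cells and 314, 11, 9, 2, 1 and 1 in the Dox cells, so 1 Dox cell held nearly all of the 338 UMIs. That cell had 5678 UMIs in all, among them 76 of Xcl1, 17 of Gzmb, 2 of Ncr1 and 4 of Klrb1c, and none of Gzma. The Gzmc level was 1058 CPM in the Dox library against 6.62 CPM in the control library, and without that cell the remaining 68 Dox cells had 24 UMIs or 76.5 CPM (log2 ratio 3.24, 1.52 to 6.66), which rested on 5 cells.

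The comparison with Cd3-positive cells asked what set the Cd3-negative cells apart from T cells within the same library. A gene was tested when it had 50 or more UMIs over both groups in each library, and it was called when it differed at least 2-fold in the same direction in both libraries. Of 2624 genes 67 (2.55%) were higher and 65 (2.48%) lower in the Cd3-negative cells. Because the groups were drawn by expression, these counts are a description with no test. Of 29 NK receptors listed, 12 reached the minimum, and these were at least 2-fold higher. They reached it mostly through the Cd3-negative cells and include the rule gene Klrd1, so that the direction was largely fixed by the choice of genes and cells. Their levels are a description, with a median log2 ratio of 4.15 in the control and 3.80 in the Dox library against 0.09 and 0.12 over all genes tested.

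In Cd3-negative cells Ncr1 had 397 and 410 CPM (control and Dox), against 12.99 and 12.60 CPM in Cd3-positive cells. The log2 ratios were 4.89 and 4.94. Klrb1b, which encodes an inhibitory NKR-P1 receptor, stood at 225 and 247 CPM against 7.80 and 0 CPM, which made it at least 52.3-fold higher in the Dox library with the empty group set to 3 counts. Klre1, a partner of inhibitory and activating lectin-like receptors, was at 268 and 301 CPM against 18.2 and 28.4 CPM. Klrc2, Klri2 and Klrb1f, lectin-like receptor genes, had 69.5 and 81.4 CPM, 79.5 and 84.5 CPM, and 109 and 116 CPM, against at most 6.06 CPM in control and 12.60 CPM in Dox Cd3-positive cells. Smaller differences were those of genes that T cells also use. Klrk1, which encodes the activating receptor NKG2D, was higher by log2 ratios of 1.59 and 1.93, and Klrc1, which encodes the inhibitory receptor NKG2A, by 1.49 and 2.23.

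Genes of the Ly49 family, which encode mostly inhibitory receptors for MHC class I, were spread unevenly over the cells. Klra8 (Ly49H in strain C57BL/6, an activating member) had 348 and 263 CPM and was detected in 41 of 75 control and 35 of 69 Dox cells. Klra4 had 295 and 322 CPM and was detected in 29 and 25 cells, and Klra9 had 265 and 172 CPM in 28 and 29 cells. Klra5 was at 0 in the control and had 27 UMIs in the Dox library, 23 of them in 1 cell. At least 2 Klra genes were detected in 48 of 75 control cells (64.0%) and 44 of 69 Dox cells (63.8%), with a median of 2 in each library, while 15 and 13 cells had none. The 14 Klr genes with 50 or more UMIs lie between positions 128609227 and 130337574 of chromosome 6 (GRCm38, from Klrb1a to Klra3). Klra genes are near-identical copies in part, so the assignment of UMIs among them is uncertain.

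Among the signalling adaptors, Tyrobp (DAP12) and Fcer1g, which pass on signals of activating receptors, were higher, and Lat and Cd247, which serve the T cell receptor, were lower. Tyrobp had 2616 and 2683 CPM against 117 and 169 CPM in Cd3-positive cells. Lat had 92.7 and 84.5 CPM against 544 and 539 CPM. Lck, Zap70 and Fyn, kinases of the same pathway, did not differ 2-fold in both libraries.

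Of 17 transcription factors tested, 3 were higher and 2 lower in both libraries, against 2.55% and 2.48% of all genes tested. Irf8, an interferon regulatory factor of myeloid cells and NK cells, had the largest smaller ratio of both libraries among the genes higher in Cd3-negative cells. Its level was 904 and 980 CPM, detected in 64 of 75 and 54 of 69 cells, against 18.2 and 25.2 CPM in Cd3-positive cells. The log2 ratios were 5.6 and 5.24. Macrophages also use Irf8. The 9 macrophage markers summed to 947 CPM in the control cells (286 UMIs, all 9 genes detected, 45 of 75 cells, led by Lyz2 at 298 CPM) and to 68.9 CPM in the Dox cells (22 UMIs, 19 of 69 cells), with C1qa, Adgre1, Mrc1 and Ms4a7 at 0 in Dox, against 284 and 375 CPM in Cd3-positive cells. A single control cell held 225 of the 286 UMIs and 5 of the 273 Irf8 UMIs, and without it the control Irf8 level was 918 CPM. Eomes and Tbx21, the T-box factors of NK cells, stood at 185 and 128 CPM and at 172 and 166 CPM, with log2 ratios of 3.08 and 2.32 for Eomes and 1.73 and 1.76 for Tbx21. Tcf7 and Lef1, factors of naive and memory T cells, were lower, Tcf7 by log2 ratios of -1.18 and -1.47.

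Of 13 lytic granule genes tested, Gzma, Gzmb, Prf1, Nkg7, Ctsw, Serpinb9 and Serpinb6b were higher and Gzmk was lower. Among all genes tested 2.55% were higher and 2.48% lower. Gzma and Nkg7 belong to the genes that drew the cells. Prf1 and Gzmb reached the minimum mostly through the Cd3-negative cells, which were drawn for cytotoxic genes. The count of higher genes is therefore a description. Prf1, which encodes the pore-forming perforin, had 354 and 360 CPM against 25.1 and 31.5 CPM, and Gzmb, which encodes the caspase-cleaving granzyme B, had 477 and 989 CPM against 49.4 and 64.6 CPM. Serpinb9b, a serpin gene, had 89.4 and 72.0 CPM in 9 and 7 cells and was at 0 in Cd3-positive cells. Gzmk, the granzyme of a set of memory CD8 T cells, had 13.2 and 12.5 CPM against 109 and 89.8 CPM.

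Secreted factors and homing receptors also differed. Ccl3, an inflammatory chemokine, had 288 and 200 CPM against 27.7 and 17.3 CPM. The control cell rich in macrophage genes held 42 of the 87 control UMIs, and without it the control level was 154 CPM. Il17a, the cytokine of type 17 lymphocytes, was at 0 in the Cd3-negative cells and at 124 and 85.1 CPM in Cd3-positive cells, at least 12.5-fold and 9.06-fold lower. Of 22 homing and residency genes 7 were lower, among them Cxcr6, Cxcr3, Cd69 and S1pr1, and 2 were higher, among them Cd7. Over all genes tested 2.48% were lower and 2.55% higher. Cxcr6, a receptor of tissue-resident lymphocytes, had 23.2 and 21.9 CPM against 222 and 169 CPM, with log2 ratios of -3.16 and -2.85. Il7r, the receptor chain for interleukin 7, had 39.7 and 37.6 CPM against 265 and 291 CPM.

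The 13 T cell markers tested were at least 2-fold lower. The Cd3 genes were set low by the rule, and the others reached the minimum mostly through the Cd3-positive cells, which were drawn by Cd3, so that this direction too was largely fixed by the choice of genes and cells. With genes at 0 set to 3 counts, their median log2 ratio was -4.22 in the control and -3.10 in the Dox library. Cd8b1 was at least 39.9-fold and 42.6-fold lower, Cd5 at least 13.4-fold and 12.7-fold, the checkpoint receptor gene Pdcd1 at least 13.95-fold and 11.2-fold, and the predicted gene Gm8369 at least 11.4-fold and 12.4-fold. Of the MHC class I, p53 target, proliferation, immediate early, glycolysis, ribosomal and mitochondrial lists none of the genes tested was 2-fold apart in the same direction in both libraries. The proliferation list differed between the libraries, with a median of -0.31 in the control (2 of 14 genes lower) and 0.93 in the Dox library (4 of 14 higher), where the 3 cells rich in these genes described below lie. Ribosomal protein genes were below 0 in 78 of 80 in the control and 76 of 80 in the Dox library, with medians of -0.39 and -0.24. Of 15 interferon response genes 3 were lower (Slfn1, Ifi27l2a and Ly6a), against 2.48% of all genes tested. The variable segment genes Trbv1, Trbv3, Trbv13-1, Trbv13-2 and Trbv16 were at 0 in the Cd3-negative cells of both libraries.

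**Figure D2:**
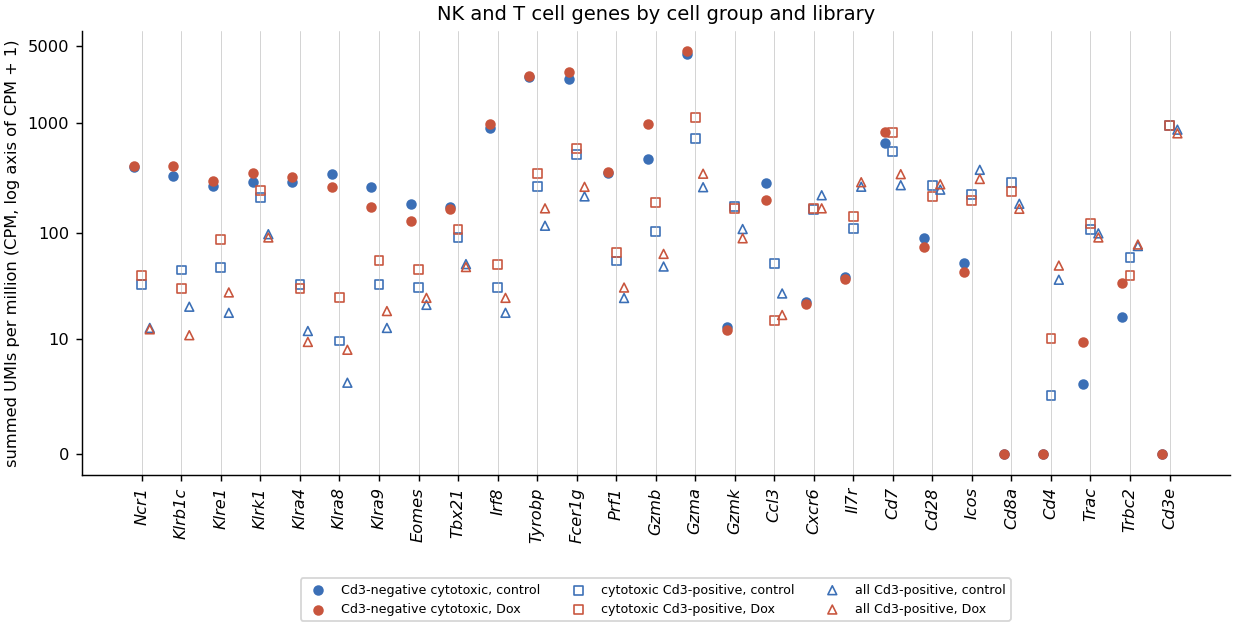
Summed level (CPM on a log axis) of NK cell and T cell genes in Cd3-negative cytotoxic cells (filled circles), Cd3-positive cells that pass the cytotoxic minimum (squares) and all Cd3-positive cells (triangles), in blue for the control and red for the Dox library. Irf8 and the NK receptors shown lie above both Cd3-positive groups in both libraries (Irf8: 904 and 980 CPM), and Cxcr6, Il7r, Icos and the T cell genes lie below them. Klrd1, which is not shown, had 363 CPM in the Dox library, against 434 CPM in the Cd3-positive cells that pass the cytotoxic minimum.

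Against the Cd3-positive cells that also passed the cytotoxic minimum (92 control and 44 Dox cells) the differences were smaller. Of 1485 genes tested 32 (2.15%) were higher and 15 (1.01%) lower. NK receptors were higher for 8 of 12, with medians of 2.88 and 2.28. These 12 again include the rule gene Klrd1 and reached the minimum mostly through the Cd3-negative cells. Their direction was thus largely fixed by the choice of genes and cells, and the count is a description. Irf8 was higher by log2 ratios of 4.8 and 4.19, Ncr1 by 3.51 and 3.24 and Prf1 by 2.65 and 2.39. Nkg7, Klrk1 and Cd7 were not 2-fold apart from cytotoxic T cells, with log2 ratios of 0.29 and 0.62, 0.49 and 0.51, and 0.27 and 0.04.

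**Figure D3:**
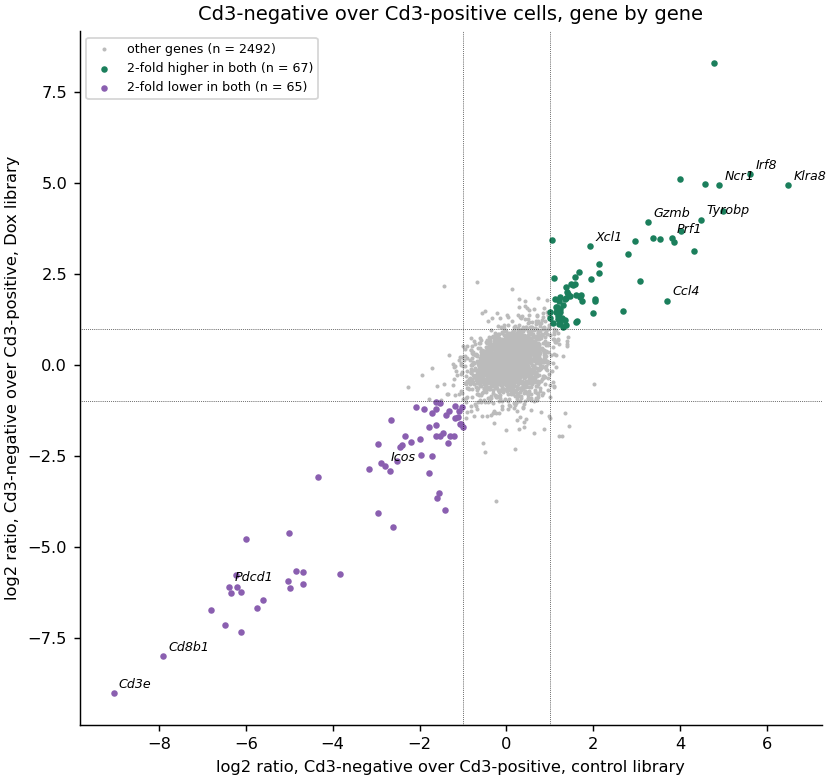
Each point is 1 of 2624 genes, with its log2 ratio of Cd3-negative cytotoxic cells over Cd3-positive cells in the control library (x axis) and in the Dox library (y axis); dotted lines mark 2-fold, and the position of genes at 0 in a group depends on the 0.5 counts added. The 67 genes higher in both libraries (green) are led by Irf8 and Klra8 and the 65 lower (purple) by Cd3e and Cd8b1.

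The cells varied among themselves in Gzma, which encodes the tryptase granzyme A (chromosome 13, 113093825 to 113100981, minus strand, GRCm38). Its UMIs per cell ranged from 0 to 89 with a median of 12 in the control library and from 0 to 127 with a median of 7 in the Dox library. The gene was not detected in 15 of 75 control cells (20%, 11.6 to 30.8) and 21 of 69 Dox cells (30.4%, 19.9 to 42.7), while 53 and 39 cells had 5 or more UMIs. Cells without Gzma were not shallower, with a median of 3818 and 5060 UMIs against 3197 and 3017. Ncr1 or Klrb1c was detected in 14 of 15 and 19 of 21 of them. Ncr1 also belongs to the ILC3 marker list, so these receptors alone do not tell NK cells from other innate lymphocytes. The cells without Gzma passed the rule through the other genes of the sum. The split was made after the values had been seen, so what follows is a description.

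Compared with cells at 5 or more Gzma UMIs, cells without Gzma differed at least 2-fold in both libraries in 18 of 675 genes, 6 higher (0.889%) and 12 lower (1.78%). Higher were Xcl1, Cd7, Ly6e, Emb, Errfi1 and Hilpda. Cd7, an early lymphocyte surface marker, had 1314 against 478 CPM in the control and 1215 against 442 CPM in the Dox library. Ly6e, an interferon-inducible surface protein, had 1330 against 401 CPM and 1560 against 517 CPM. Lower, beside Gzma itself, were the effector genes Prf1, Ccl5 and Ccl3, the receptor genes Klra8 and Klre1, Ly6c2 and the factor genes Irf8 and Id3, as well as Gsn, Igfbp5 and Mgp.

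Prf1 had 16.0 against 487 CPM in the control library and 67.5 against 662 CPM in the Dox library, with log2 ratios of -4.35 (-10.24 to -2.42) and -3.22 (-4.47 to -2.31). The control value in cells without Gzma rests on 1 UMI. Ccl5, a chemokine of memory and effector lymphocytes and a gene of the rule, had 2211 against 10392 CPM and 2325 against 14170 CPM. Irf8 had 481 against 1089 CPM and 412 against 1476 CPM. Ncr1 differed little, with 465 against 416 CPM and 398 against 476 CPM.

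Cxcr6 was detected in 4 of 15 control and 4 of 21 Dox cells without Gzma and in none of the other 60 and 48 cells. Il7r had 144 against 14.3 CPM in the control library, and 75.0 CPM against 0 in the Dox library. These are genes of the ILC1 or tissue-resident NK cell list, on which the counts were small: the whole list of 10 genes summed to 715 and 635 CPM in all Cd3-negative cells, and its most abundant gene, Tmem176b (255 and 188 CPM), stood higher in all remaining kept cells (620 and 600 CPM).

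A few cells were rich in proliferation genes. In 1 control cell and 3 Dox cells the 45 listed genes took 23805 to 32236 CPM of the cell, while no other cell exceeded 7275 CPM. All 4 lacked Gzma, and the 3 Dox cells had 20839, 14859 and 12386 UMIs, the largest totals among the 69 cells. These totals were over 3 times the median, so the 3 Dox cells also counted as possible doublets. Top2a, a DNA topoisomerase of dividing cells, had 23, 12 and 8 UMIs in these Dox cells and none in the remaining 66. Of these cells 1 also held 98 Gzmb and 97 Xcl1 UMIs and had no UMI of Ncr1 or Klrb1c, and the other 2 Dox cells had both receptors.

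**Figure D4:**
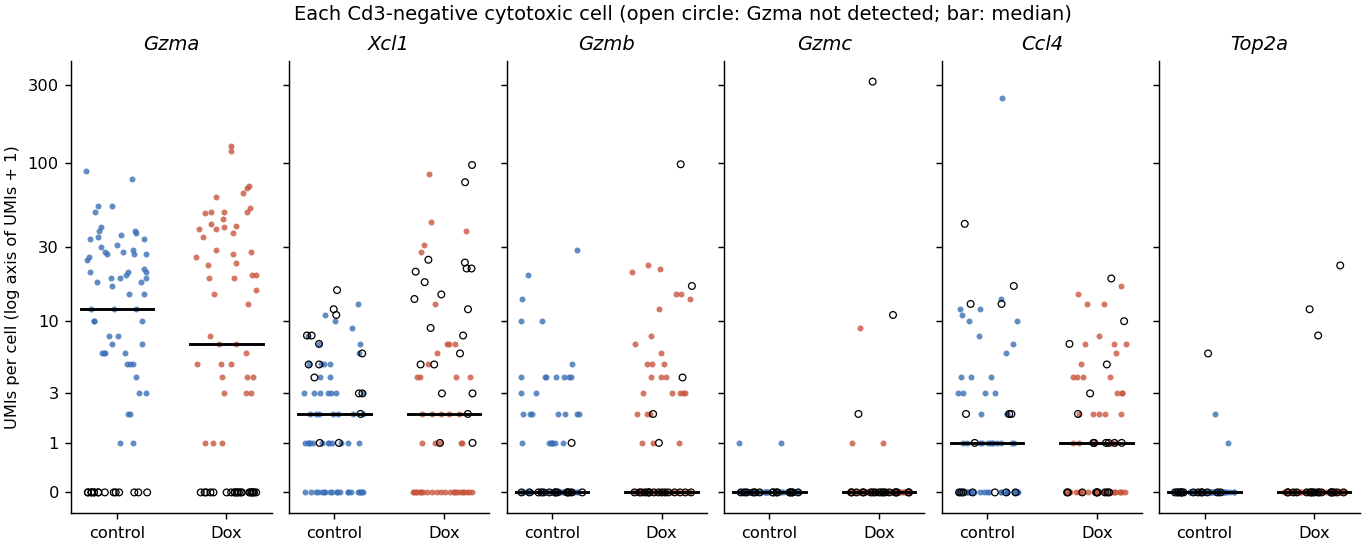
UMIs per cell (log axis) of 6 genes in each of the 75 control (blue) and 69 Dox (red) Cd3-negative cytotoxic cells; open circles are cells without Gzma and bars are medians. The median of Xcl1 is 2 UMIs in both libraries while the highest cells reach 16 and 97, the Gzmc and Top2a values rest on few cells, and 1 control cell stands far above the others in Ccl4.

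The upstream sequences of the 3 granzyme genes and of Xcl1 are given because Gzma divided the cells and the others were past 2-fold higher in Dox. Each run is the 250 bases before the RefSeq start on the gene's own strand (GRCm38.p6), with matches to a RUNX motif (TGTGGT or ACCACA) and to a T-box half-site (TCACAC or GTGTGA) in capitals. RUNX and T-box proteins act in cytotoxic lymphocytes.
Gzma, chr13:113100982-113101231, minus strand: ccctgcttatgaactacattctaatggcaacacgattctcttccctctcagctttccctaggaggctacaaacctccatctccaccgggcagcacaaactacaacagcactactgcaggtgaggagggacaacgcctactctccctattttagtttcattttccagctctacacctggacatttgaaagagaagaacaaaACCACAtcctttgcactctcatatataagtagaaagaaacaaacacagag
Gzmb, chr14:56262335-56262584, minus strand: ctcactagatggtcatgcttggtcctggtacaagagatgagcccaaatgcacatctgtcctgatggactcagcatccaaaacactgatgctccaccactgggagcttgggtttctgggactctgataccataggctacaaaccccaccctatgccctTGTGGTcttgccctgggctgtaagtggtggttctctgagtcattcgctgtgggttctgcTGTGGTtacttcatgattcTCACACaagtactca
Gzmc, chr14:56234658-56234907, minus strand: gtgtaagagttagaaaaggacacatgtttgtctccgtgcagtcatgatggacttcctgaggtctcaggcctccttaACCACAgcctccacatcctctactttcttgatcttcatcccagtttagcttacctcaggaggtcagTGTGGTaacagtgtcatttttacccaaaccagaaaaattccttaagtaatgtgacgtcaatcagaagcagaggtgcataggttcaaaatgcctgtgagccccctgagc
Xcl1, chr1:164935523-164935772, minus strand: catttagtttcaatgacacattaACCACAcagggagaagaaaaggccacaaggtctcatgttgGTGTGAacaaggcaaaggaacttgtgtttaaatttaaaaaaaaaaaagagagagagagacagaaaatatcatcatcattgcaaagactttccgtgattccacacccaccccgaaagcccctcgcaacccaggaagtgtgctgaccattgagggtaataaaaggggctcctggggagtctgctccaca
The RUNX letters begin 50 bases before the start of Gzma, 93 and 34 bases before Gzmb, 174 and 108 bases before Gzmc and 227 bases before Xcl1. The T-box letters begin 15 bases before Gzmb and 187 bases before Xcl1, and were not found in the windows of Gzma and Gzmc. Of 32817 windows of this length 14.04% held the RUNX letters and 12.3% the T-box letters, so such matches are common, and they do not show binding.

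The comparison of Dox with control asked how the cells differed after injection of the drug. Of 1872 genes with 50 or more UMIs over both libraries, 27 (1.44%) were at least 2-fold higher in Dox and 64 (3.42%) at least 2-fold lower. Leaving out, for each gene, the cell with the most UMIs in each library left 16 (0.855%) and 54 (2.88%) of these genes past 2-fold. Without possible doublets (10 control and 7 Dox cells left out) 4 genes were higher and 18 lower. Fewer genes then reached 50 UMIs, so these counts are not shares of the 1872 genes. Hspb1 (42 control and 4 Dox UMIs, log2 ratio -3.31) and Ednrb (40 and 8, -2.33) dropped out in this way. None of 17 NK receptors tested passed 2-fold, a count near the share over all genes, and their median log2 ratio was 0.10 against 0.04 over all genes. Ncr1 stood at 397 and 410 CPM (0.04, -0.32 to 0.41), Prf1 at 354 and 360 CPM (0.02, -0.37 to 0.42) and Irf8 at 904 and 980 CPM (0.12, -0.12 to 0.36).

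Xcl1 (chromosome 1, 164931644 to 164935527, minus strand) was the most abundant gene past 2-fold in the higher direction. Its 238 control UMIs gave 788 CPM and its 690 Dox UMIs 2160 CPM, a log2 ratio of 1.45 (1.24 to 1.67). In Cd3-positive cells the ratio was 0.12. Per cell, Xcl1 ranged from 0 to 16 UMIs in the control and from 0 to 97 in the Dox library, with a median of 2 in each. It was detected in 55 of 75 (73.3%) and 46 of 69 cells (66.7%), and the 6 highest cells held 30.7% and 53.6% of its UMIs. The distributions thus overlapped in their lower part and differed in the upper tail. Xcl1 belongs to the rule. With Xcl1 left out of the cytotoxic sum (66 and 56 cells) its log2 ratio was 1.67, and in cells drawn by 2 or more UMIs of Ncr1 and Klrb1c in place of the sum (59 and 56 cells) it was 1.5. Without possible doublets (65 and 62 cells) it was 1.0 (0.75 to 1.26), just under 2-fold. Among cells without Gzma Xcl1 stood at 1474 and 2918 CPM (0.98, 0.65 to 1.33), and among cells at 5 or more Gzma UMIs at 564 and 828 CPM (0.55, 0.18 to 0.93).

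Ltb, which encodes a subunit of the lymphotoxin heterotrimer, stood at 72.9 and 194 CPM (1.39, 0.69 to 2.19) and Tnfrsf18, which encodes the costimulatory receptor GITR, at 103 and 238 CPM (1.20, 0.59 to 1.86). Ltb was detected in 17 control and 22 Dox cells and Tnfrsf18 in 23 and 40. In Cd3-positive cells the log2 ratios were -0.25 for Ltb and -0.04 for Tnfrsf18. Without possible doublets both remained past 2-fold, at 1.24 and 1.09. With Xcl1 left out of the cytotoxic sum the ratio of Ltb was 0.65 (-0.32 to 1.68). Gzmb stood at 477 and 989 CPM (1.05, 0.76 to 1.35), but 98 of its 316 Dox UMIs came from 1 of the 3 Dox cells rich in proliferation genes. Without possible doublets its ratio was 0.46, and in cells drawn by Ncr1 and Klrb1c 0.38. Of 8 secreted factors tested Xcl1 and Ltb were past 2-fold higher and Ccl4 lower. None of 10 adaptor and kinase genes and none of 15 homing genes passed, and 1 of 16 transcription factors (Id3) and 1 of 8 cytokine receptors (Tgfbr2) were lower, counts too small to set apart from the 1.44% and 3.42% of all genes. The remaining rule genes differed less, with log2 ratios of 0.07 for Gzma, 0.23 for Nkg7, 0.00 for Ccl5 and -0.07 for Klrd1.

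Proliferation genes were the group with the largest median in the higher direction. The macrophage, melanocyte and fibroblast marker lists lay further from 0 in the lower direction, with medians of -3.90, -2.57 and -1.41. Of 13 proliferation genes tested, 8 were at least 2-fold higher in Dox, against 1.44% of all genes tested, and the median log2 ratio was 1.22. Stmn1, a microtubule regulator of dividing cells, had 89.4 and 432 CPM, Top2a 29.8 and 135 CPM and Pclaf, a partner of the replication clamp, 36.4 and 131 CPM. Further genes among the 12 largest ratios were the histone genes Hist1h2ae (36.4 and 216 CPM), Hist1h1e (46.4 and 135 CPM) and H2afx (89.4 and 247 CPM), the deubiquitinase gene Usp1 (46.4 and 125 CPM) and the galectin gene Lgals3 (62.9 and 213 CPM). The top Dox cell of each gene held 37 of 69 UMIs of Hist1h2ae, 24 of 43 of Hist1h1e, 32 of 79 of H2afx and 29 of 68 of Lgals3. Without possible doublets Hist1h2ae had 11 control and 3 Dox UMIs, Hist1h1e 12 and 9, and H2afx 19 and 20. The log2 ratios of Stmn1, Lgals3 and Usp1 were then -0.68, 0.46 and 0.90. Without the 4 cells rich in proliferation genes the median over the same 13 proliferation genes was -0.06, with Smc4 (1.15) past 2-fold higher. Top2a and Pclaf then had 3 and 2 UMIs in the control and none in the Dox library, too few for a ratio. The 3 Dox cells held 1402 of the 2152 Dox UMIs of the list, and the 1 control cell 134 of 991. The 4 cells were picked by these same genes, so leaving them out describes where the UMIs lay and is no test.

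Lower in Dox were Id3, an inhibitor of E protein transcription factors, at 911 and 376 CPM (-1.27, -1.60 to -0.96), and Tgfbr2, a receptor of transforming growth factor beta, at 123 and 53.2 CPM (-1.18, -2.12 to -0.34). In Cd3-positive cells their log2 ratios were -0.05 and -0.01. In all remaining kept cells Id3 stood at 3999 and 3668 CPM, above its level here, and the fibroblast list in the Cd3-negative cells at 831 and 341 CPM. The part of RNA from other cells in the Id3 ratio was not tested. Id3 was lower in cells without Gzma and in cells with it, by -1.05 in each, and was -0.75 without possible doublets. Several large ratios rested on 1 cell. Ccl4, an inflammatory chemokine, had 1566 and 595 CPM (-1.39), but 249 of its 473 control UMIs came from the control cell that held 225 of the 286 macrophage list UMIs. Without that cell the ratio was -0.37 (-0.65 to -0.08). The same cell held 176 of 192 control UMIs of Cxcl2, 35 of 36 of Tnf, and, of the macrophage genes C1qb, C1qc and Lyz2, 55 of 62, 44 of 49 and 57 of 90. Leaving it out gave 28 genes higher and 54 lower in Dox. Further genes among the 12 smallest ratios were S100b (430 and 50.1 CPM), Hspb1, a small heat shock protein (258 and 37.6 CPM), Marcksl1 (291 and 43.8 CPM) and Spp1, which encodes osteopontin (248 and 37.6 CPM). In all remaining cells they stood at 363 and 194 CPM, 769 and 789 CPM, 331 and 307 CPM, and 317 and 139 CPM. Without possible doublets Marcksl1 stood at 62.6 and 55.2 CPM (-0.18, -1.39 to 1.02). The log2 ratios of S100b, Hspb1 and Spp1 were then -2.82, -3.31 and -2.82.

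Of the interferon response genes and the targets of p53, the factor that answers DNA damage, too few were measured deeply enough to tell their share past 2-fold from that of all genes (1.44% higher and 3.42% lower). Of 62 interferon response genes measured 8 reached the minimum and none passed, with a median of -0.09. Ly6e stood at 636 and 1008 CPM (0.66, 0.40 to 0.93) and Isg15 at 136 and 188 CPM (0.46, -0.13 to 1.08). For Isg15 1 control cell held 21 of 41 UMIs, and without the top cell of each library its ratio was 1.33. Of 28 p53 targets 6 reached the minimum and none passed. Cdkn1a, which encodes the cell cycle inhibitor p21, stood at 248 and 160 CPM (-0.63, -1.18 to -0.11), while its log2 ratio in RPE cells of the same libraries was 1.27. MHC class I presentation genes were above 0 in 16 of 18 tested, none by 2-fold, with a median of 0.28, and of all genes tested 55.2% were above 0. H2-K1 stood at 2467 and 3096 CPM (0.33, 0.19 to 0.47), and its ratio in Cd3-positive cells was -0.04.

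**Figure D5:**
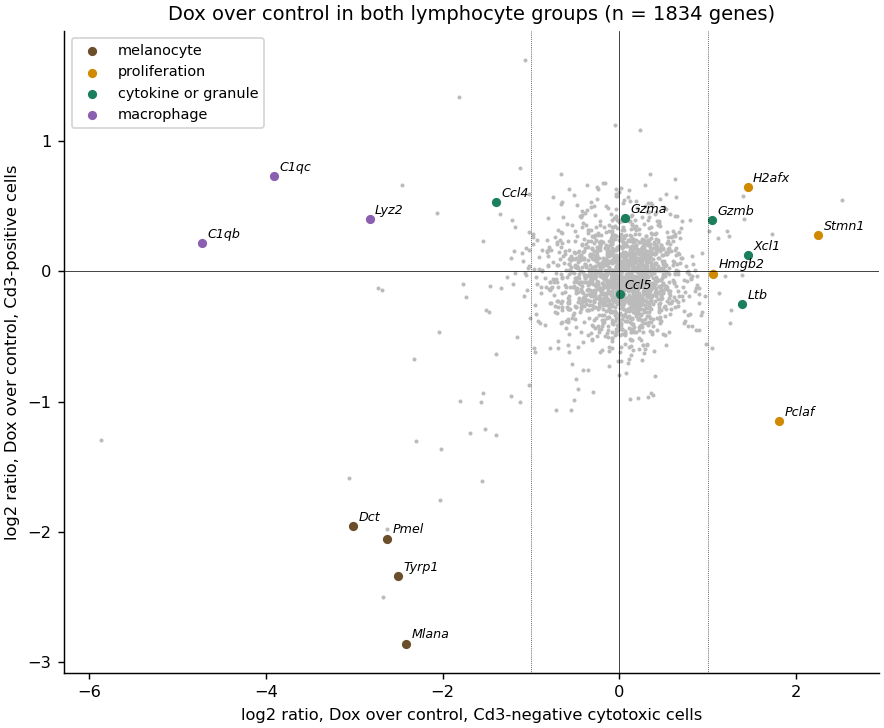
Each point is 1 of 1834 genes with 50 or more UMIs in both cell groups, with its log2 ratio of Dox over control in Cd3-negative cytotoxic cells (x axis) and in Cd3-positive cells (y axis); dotted lines mark 2-fold on the x axis. Xcl1 and Ltb lie to the right near 0 on the y axis, the melanocyte genes (brown) are low on both axes, and the 4 proliferation genes (orange) and 3 macrophage genes (purple) that are marked lie away from 0 on the x axis, with many of their UMIs in the few cells named in the text.

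Marker genes of neighbouring cell types were detected among the cells, at levels that differed between the libraries. The 5 melanocyte genes summed to 3941 CPM in the 75 control cells and 601 CPM in the 69 Dox cells, led by Dct (1705 and 210 CPM), which was detected in 73 of 75 and 37 of 69 cells. They also summed to 3468 and 781 CPM in Cd3-positive cells and to 4012 and 1629 CPM in all remaining cells. Dct, Pmel, Tyrp1, Mlana and Ednrb were among the genes lower in Dox, with log2 ratios from -3.01 to -2.42, and their ratios in Cd3-positive cells ran from -2.86 to -1.95. RPE genes summed to 4322 and 5857 CPM, led by Ttr (3060 and 4198 CPM), with Best1 at 0. Fibroblast genes summed to 831 and 341 CPM, led by Dcn (361 and 128 CPM), and smooth muscle genes to 1176 and 657 CPM, led by Acta2 (550 and 376 CPM). The origin of this RNA and its part in the other ratios were not tested.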

How the data were processed

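The authors aligned 10x Genomics 5′ reads to mm10 with Cell Ranger (4.0.0 per the file headers; the methods also name another version), and the deposited values are raw UMI counts for 32285 genes per cell. Cells with more than 500 UMIs, more than 200 but fewer than 6000 genes and less than 0.2 of their UMIs from mitochondrial genes were kept (the complexity limit of the methods was an alternative), and members were drawn by the expression rule of the report. The cells and gene lists were chosen with earlier results of these data known. UMIs were summed per cell group and library and, being counted at 5′ ends, were not scaled by gene length. Levels carry exact Poisson intervals, shares Clopper-Pearson intervals, and log2 ratios (0.5 counts added) exact conditional binomial intervals, all at 95% and for counting error only. With 1 library per condition no p-value was computed.

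Genes were called at 2-fold with at least 50 UMIs over both groups, and genes at 0 were bounded at 3 counts. Named were genes of the rule and of the lists, the 12 largest and 12 smallest ratios of Dox over control whose interval excluded 0, the 15 largest and smallest ratios against Cd3-positive cells, and the 15 highest folds over all other cells. Others were chosen after their values were seen. No doublet caller was run. Possible doublets were taken as cells with 5 or more UMIs of macrophage, B cell, endothelial, smooth muscle or Schwann markers or over 3 times the median UMIs, and leaving them out was an alternative. Of 518 list genes 510 were measured. Positions came from GENCODE vM21 and sequences from RefSeq (GRCm38.p6). The ratios were tested on simulated counts. Python 3.11.15 with NumPy and SciPy was used. Some listed genes are not reported here.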

Additional observations from a re-analysis of the deposited data

Results flagged for a closer look

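In 3 of 1834 genes with 50 or more UMIs in both groups the Cd3-negative and the Cd3-positive cells differed at least 2-fold between the libraries in opposite directions, with counting intervals on opposite sides of 0. Pclaf was higher in Dox by 1.80 (log2) in Cd3-negative cells, through 3 cells, and was -1.15 in Cd3-positive cells. Ccn1 was -1.07 against 1.62, and Ccn2 was -1.81 against 1.34. Ccn1 and Ccn2 are secreted matrix proteins of connective tissue cells and were detected in 11 and 15 control and 8 and 9 Dox Cd3-negative cells. These differences between the groups were not tested.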

How the results depend on the processing

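No paired analysis was possible because each condition had 1 library, and no library could be left out. Over 20 alternatives, 4 of them chosen after seeing the data, the shares of cells and most list medians stayed near the values reported. Of the shares, counts and medians 477 values did so, 33 moved and 2 turned, and of the single genes 169 did so and 21 moved. Counts of genes past 2-fold moved most. Without possible doublets 4 genes were higher and 18 lower in Dox, and the proliferation median turned to -0.30. With cells weighted equally 15 genes were higher. After thinning each cell to 1000 UMIs the counts were 2 and 6 for Dox over control and 19 and 11 for Cd3-negative over Cd3-positive cells, and the medians of the latter were 1.55 for lytic granule genes (control), 0.70 for adaptors (Dox) and 1.35 and 1.59 for secreted factors. A minimum of 20 UMIs gave 130, 260, 135 and 128 genes, and a T cell median of -4.34 (Dox). A minimum of 100 UMIs gave 10, 36, 33 and 33, with medians of 1.24 and 1.78 for secreted factors and -6.74 for T cell genes (Dox). With 0.1 counts added the T cell median was -7.59 (Dox). Against cytotoxic Cd3-positive cells 32 genes were higher and 15 lower, with medians of 0.51 and 0.71 for lytic granule genes and 2.88 and 2.28 for NK receptors. Without the 4 cells rich in proliferation genes 12 genes were higher in Dox and that list's median, over its genes still at 50 UMIs, was -0.17. With cells drawn by Ncr1 and Klrb1c 17 genes were higher and 35 lower. The minimum of UMIs and thinning change the number of genes tested by construction. So do the settings that leave cells out or draw other cells, since the minimum is applied to the cells used. The cause of the other moves was not tested.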

Other observations

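Other gene groups had medians within 2-fold between the libraries, except the macrophage, melanocyte and fibroblast marker lists (-3.90, -2.57 and -1.41). Mitochondrially encoded genes were lower in Dox in all 12 tested (median log2 ratio -0.45), against 44.8% of all genes tested, and ribosomal protein genes were higher in 77 of 80 (median 0.21), against 55.2% of all genes. Glycolysis genes had a median of 0.15, with none of 11 past 2-fold, against 1.44% higher and 3.42% lower of all genes. Among 28 immediate early and dissociation stress genes 20 were below 0, against 44.8% of all genes, and 2 passed 2-fold, a count too small to set apart from the share over all genes. Egr1 stood at 1050 and 448 CPM (-1.23) and Atf3 at 619 and 122 CPM (-2.33), with 0.11 and -0.67 in Cd3-positive cells. In all remaining cells they stood at 3822 and 3684 CPM and at 1368 and 1223 CPM, above their levels here. Malat1, a nuclear long non-coding RNA, had 7179 and 3293 CPM (-1.12). In Cd3-positive cells its ratio was 0.79, and 505 of its 2168 control UMIs came from 1 cell.

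Cma1, which encodes a chymase of mast cells, had 116 and 72.0 CPM in 20 of 75 and 13 of 69 cells. The other mast cell markers were near 0, with 4 and 1 UMIs of Mcpt4, 3 and 2 of Kit, 1 and 0 of Cpa3 and of Tpsb2, and none of Fcer1a. In cells without Gzma Cma1 stood at 16.0 and 7.50 CPM, against 162 and 152 CPM in cells at 5 or more Gzma UMIs. The split was made after the values had been seen.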
